A study of Drosophila melanogaster with 3 samples.

Results

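Of the 2793 peaks in the conservative list for Doc3-eGFP on the 6 main chromosome arms, 202 had a summit more than 500 bp from every annotated transcript start site (TSS), coding or non-coding, with transposable elements left out of the annotation. They were 7.23% of the list (95% Wilson interval 6.33 to 8.25%), and they are called distal peaks here. The distance to a start site chose them; their signal and their DNA sequence did not. Overlapping peaks share reads, so the list was merged into 2270 regions, each represented by its strongest peak. A distal peak represented 159 regions, a promoter peak (summit within 500 bp of a start site) the other 2111. The remaining 43 distal peaks were weaker peaks of a shared region, 34 of them beside a stronger distal peak and 9 beside a stronger promoter peak. Their median signal was 20.7, and none reached the list's median. The peaks come from chromatin immunoprecipitation and sequencing (ChIP-seq) with an anti-GFP antibody in whole embryos aged 0 to 24 h of 1 transgenic strain, Doc3-GFP, in which an insertion targeting Doc3 gives a Doc3-eGFP fusion protein. Chromatin was sonicated to a labelled size range of 200 to 800. The 3 biological replicates formed the only group, with no untagged or untreated group, and the control experiment that the labels name as possible was not analysed here. Whole embryos pool all tissues and stages of embryogenesis, so no cell type can be assigned to a peak.

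Doc3 (Dorsocross3) is a T-box transcription factor, 1 of a cluster of related Dorsocross genes that act redundantly in the amnioserosa, the dorsal ectoderm and the developing heart. T-box proteins bind DNA through a conserved domain that recognises a short core, GGTGTGA on 1 strand. In animals, much tissue-specific regulation runs through enhancers, stretches of DNA in introns or between genes that are bound by several factors at once and act on a promoter at a distance. Sites away from start sites are therefore where a factor's own recognition sequence is often looked for. Some other proteins bind widely in fly chromatin. DREF recognises the DNA replication-related element (DRE), TATCGATA, near the start sites of many growth and cell-cycle genes. GAGA factor, the product of Trl, recognises GAGA repeats and keeps chromatin accessible at promoters and enhancers.

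A 9-base sequence, noticed at the strongest distal summits after the data were seen, stood at 12 distal summits. Among them were 5 of the 10 strongest, and the sequence is shown here for 8 of the 12 sites. Each line gives the summit base with 50 bases on each side, from the RefSeq release 6 genome (dm6), plus strand, 5′ to 3′. Capitals mark CGTGACACG or its reverse complement CGTGTCACG.
CG16989 chrX:796484-796584: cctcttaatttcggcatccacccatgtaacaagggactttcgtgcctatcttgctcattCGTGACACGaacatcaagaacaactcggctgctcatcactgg
CG5273 chrX:758915-759015: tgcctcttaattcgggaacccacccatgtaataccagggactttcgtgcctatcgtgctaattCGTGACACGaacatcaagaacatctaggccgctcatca
CG9166 chr3L:1352139-1352239: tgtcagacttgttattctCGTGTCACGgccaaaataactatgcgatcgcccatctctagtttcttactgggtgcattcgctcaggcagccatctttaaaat
CG15468 chrX:4956089-4956189: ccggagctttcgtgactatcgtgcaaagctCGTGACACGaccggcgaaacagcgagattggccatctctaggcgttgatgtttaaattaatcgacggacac
inc chrX:1517676-1517776: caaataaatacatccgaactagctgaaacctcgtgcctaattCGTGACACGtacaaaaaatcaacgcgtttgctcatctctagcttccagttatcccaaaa
CG3149 chrX:5696042-5696142: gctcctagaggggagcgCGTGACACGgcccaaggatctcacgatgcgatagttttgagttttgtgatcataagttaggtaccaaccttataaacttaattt
msn chr3L:2579938-2580038: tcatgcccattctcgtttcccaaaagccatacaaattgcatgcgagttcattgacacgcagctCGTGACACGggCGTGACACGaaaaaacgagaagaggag
Gnpat chr3R:25489841-25489941: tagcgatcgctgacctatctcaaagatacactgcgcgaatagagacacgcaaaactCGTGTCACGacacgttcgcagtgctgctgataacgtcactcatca
In msn the element stands 2 times, and in CG16989 and CG5273 it lies in windows that are otherwise much alike.

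Other distal sites carried the DRE, and 1 carried the T-box core at its summit. The first 3 lines below are the strongest distal sites with TATCGATA, in capitals, and the last is the only distal summit with GGTGTGA, in capitals, within 50 bp.
ey chr4:696862-696962: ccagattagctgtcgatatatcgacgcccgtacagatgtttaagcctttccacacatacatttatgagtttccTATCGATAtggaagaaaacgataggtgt
for chr2L:3648323-3648423: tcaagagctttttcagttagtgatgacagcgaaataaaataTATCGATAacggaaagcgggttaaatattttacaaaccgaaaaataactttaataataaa
Atg1/CG42709 chr3L:12794674-12794774: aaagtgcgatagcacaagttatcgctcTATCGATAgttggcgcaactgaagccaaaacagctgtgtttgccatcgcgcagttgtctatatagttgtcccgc
Ccdc85 chr2L:3000594-3000694: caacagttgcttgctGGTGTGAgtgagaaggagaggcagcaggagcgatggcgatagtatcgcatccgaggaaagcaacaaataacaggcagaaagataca
Among the 6 strongest distal sites, 2 had none of these sequences within 50 bp of the summit.
Asator chr4:486564-486664: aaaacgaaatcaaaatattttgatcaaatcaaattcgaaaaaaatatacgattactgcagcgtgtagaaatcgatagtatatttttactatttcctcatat
Sfp79B chr3L:22078170-22078270: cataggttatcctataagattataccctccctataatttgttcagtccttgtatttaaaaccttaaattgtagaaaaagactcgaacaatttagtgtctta

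Most distal sites were weaker than promoter sites, but the strongest were not weak. The signal is the authors' own strength value for each peak, with no stated scale, which can be compared only within 1 list. The median signal of the 159 distal regions was 136 (interquartile range 104 to 223, lowest 4.77 at Pdcd4, highest 757 at CG16989), against 216 (138 to 339, highest 1793) for the 2111 promoter regions. At or above the median signal of all peaks stood 59 of 159 distal regions (37.1%, interval 30.0 to 44.8%) and 1322 of 2111 promoter regions (62.6%), with 60.8% of all regions there. The difference was -25.5 percentage points (Fisher's exact test, two-sided, Benjamini-Hochberg adjusted over 2 tests, p = 4.10e-10). Without replicate 2, that is among peaks found in both other replicates, the median was taken anew over those peaks. The difference there, with 47 distal regions, was -7.82 points and no longer passed (Fisher's exact test, adjusted p = 0.290). Both kinds of region overlapped widely in signal.

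**Figure D1:**
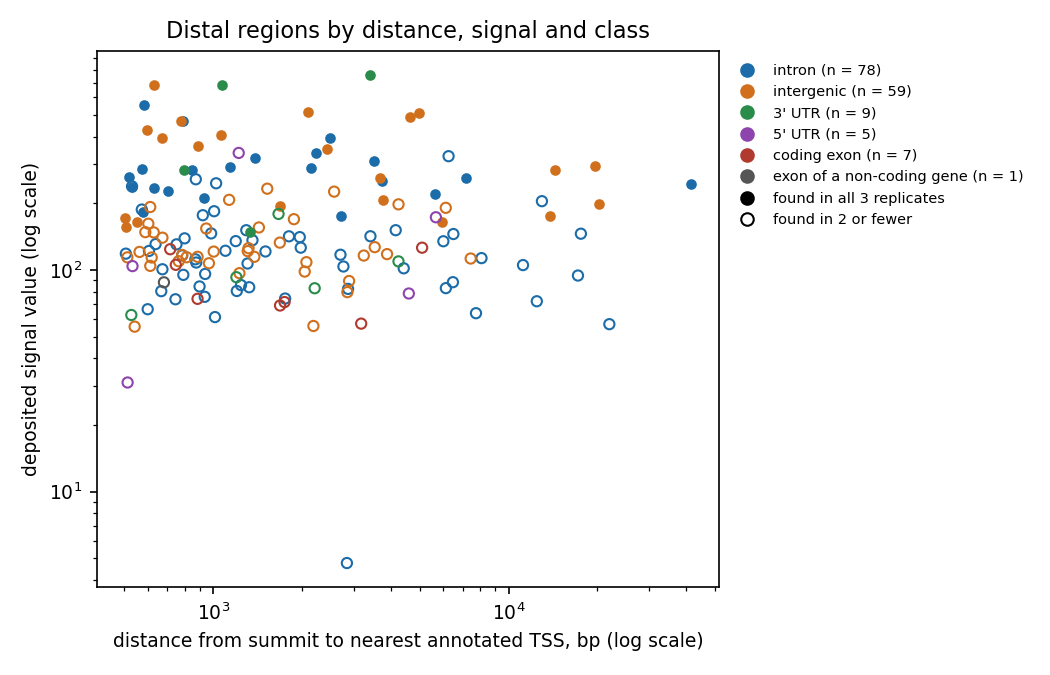
Deposited signal of each of the 159 distal regions (vertical axis, log scale) against the distance of its summit from the nearest annotated start site in bp (horizontal axis, log scale), coloured by annotation class, with filled points found in all 3 replicates and open points in 2 or fewer. Filled points lie mostly in the upper part at every distance, from 503 bp to the farthest at 41364 bp.

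Distal regions were also found less often in the separate replicates. A region counted as found where it overlapped a thresholded peak of that replicate by at least 1 bp, and the 3 replicate lists held 1774, 2486 and 1812 peaks. In replicates 1, 2 and 3, 42.8%, 65.4% and 38.4% of the distal regions were found (48.8 ± 14.5%, SD, n = 3), against 69.5%, 81.8% and 66.7% of the promoter regions (72.6 ± 8.03%). The distal share was the lower one in each of the 3 replicates. All 3 replicates held 46 of 159 distal regions (28.9%, 22.4 to 36.4%) and 1177 of 2111 promoter regions (55.8%), where 53.9% of all regions were so found. That difference of -26.8 points passed the same Fisher's exact test (adjusted p = 1.11e-10). No replicate list held 48 distal regions (30.2%) and 244 promoter regions (11.6%). Being found went with signal in both kinds. In the highest signal quartile of the list, 18 of 20 distal regions (90.0%) were found in all 3 replicates and 97.6% of promoter regions. In the next quartiles the distal counts were 24 of 39 (61.5%), 4 of 65 (6.15%) and 0 of 35, and the promoter shares were 70.6%, 10.3% and 0.488%. Within each quartile the 2 shares were closer than over all regions, and these differences were not tested.

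**Figure D2:**
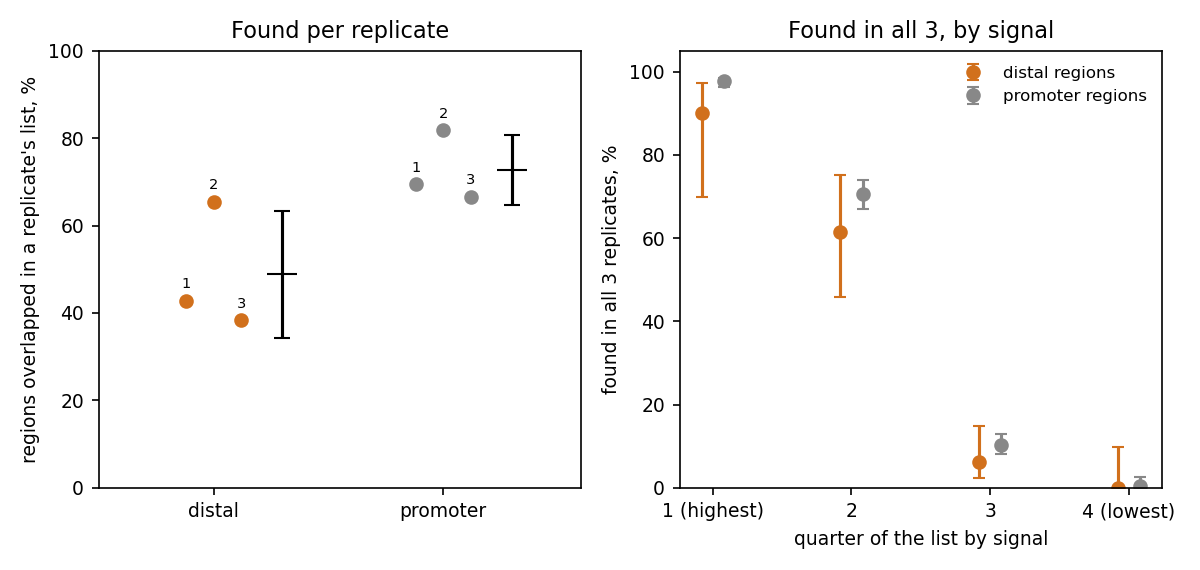
Left, percent of distal and promoter regions found in each replicate's list (numbered points) with the mean and SD over the 3 replicates; right, percent found in all 3 replicates by quartile of signal, with 95% Wilson intervals. The distal share is the lower in each of the 3 replicates, and both kinds fall from 90.0% and 97.6% in the highest quartile to 0% and 0.488% in the lowest.

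The 15 distal regions with the highest signal were each found in all 3 replicates. At CG3149, among these 15, no region in the ranked list of replicate 1 covered the summit, so it had no signal there. The highest lay in the 3' UTR of CG16989, 3387 bp from the start site, with a signal of 757 and rank 44 of the 2793 peaks. In the replicates' own ranked lists it had signals of 112, 333 and 275, at ranks 190, 45 and 49. The second lay 629 bp upstream of CG5273, at 684 and rank 67, with replicate signals of 116, 308 and 249. The third lay in the 3' UTR of CG9166, 1073 bp from its start site, at 679.6, with replicate signals of 171, 299 and 182. The ranked lists differ in length, with 30159, 59389 and 141211 regions, so these signals are set side by side and not compared across replicates.

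The next strongest stood beside genes of varied function. Asator, which encodes a kinase that associates with the mitotic spindle matrix, had a signal of 554 in its first intron, 581 bp from the nearest start site, and replicate signals of 115, 235 and 196. A site 2102 bp upstream of Sfp79B, which encodes a seminal fluid protein, had 516. A site near CG15468 had 509.7, and a site near inc, the insomniac gene that encodes a Cullin-3 adaptor needed for normal sleep, had 491. The Pax6 gene ey (eyeless), which directs eye formation, had 471 at a site 777 bp upstream, with replicate signals of 82.1, 210.2 and 180.3. The zinc finger gene zf30C had 468 in an intron. The site 598 bp upstream of Sumo, the small ubiquitin-like modifier, had 430.2. They were followed by SP1029 at 407, CG14314 at 393, org-1 at 392.5, CG3149 at 363 and Mnt, which encodes a repressor that competes with Myc for Max, at 350.4. No single class of gene is common to these 15.

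The T-box gene org-1, the fly counterpart of Tbx1 with a role in muscle founder cells, held the only site in an intron of another T-box gene among the 15. It lay 2491 bp into the gene, with replicate signals of 49.2, 196 and 141. It was found in all 3 replicates.

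By position, distal sites fell mostly in introns and between genes. Of the 159 regions, 78 had the summit in an intron (49.1%, 41.4 to 56.8%), and introns hold 45.7% of the bases more than 500 bp from a start site. Another 59 were intergenic (37.1%, 30.0 to 44.8%, against 31.5% of those bases). Coding exons held 7 (4.40%, 2.15 to 8.81%), against 16.1% of the bases, which is above the upper bound of the interval. The 3' UTRs held 9 (5.66%, 3.01 to 10.4%, against 5.12%) and the 5' UTRs 5 (3.14%, 1.35 to 7.15%, against 0.700%). The exon of lncRNA:CR32218, a non-coding gene, held a single summit, near Mi-2, with a signal of 88.0. These intervals cover counting error only, and the shares of bases are given for comparison with no test. Over all 202 peaks the classes held 95 in introns, 70 between genes, 17 in coding exons, 13 in 3' UTRs, 6 in 5' UTRs and 1 in a non-coding exon.

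**Figure D3:**
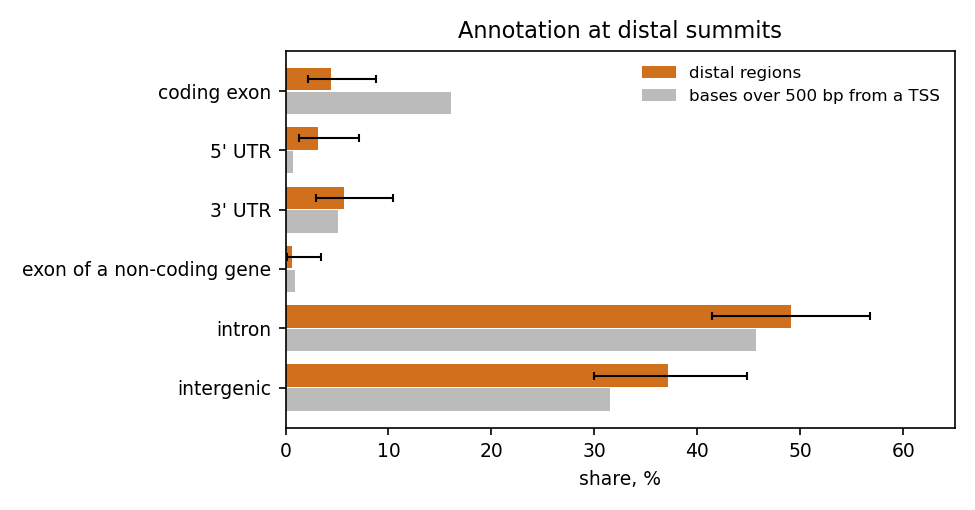
Share of the 159 distal regions in each annotation class, with 95% Wilson intervals, beside the share of all bases more than 500 bp from a start site. Introns and intergenic sequence together hold 137 of the regions, and coding exons hold 4.40% of regions against 16.1% of bases.

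Signal differed little between the large classes. Intronic regions had a median signal of 136 and 21 of 78 found in all 3 replicates (26.9%), and intergenic regions 156 and 21 of 59 (35.6%). The 3' UTR regions had a median of 149 and 4 of 9 found in all 3. Coding exon regions had a median of 74.1 and none of 7, and 5' UTR regions 104 and none of 5. No difference between classes was tested.

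In introns the strongest after Asator, zf30C and org-1 was for (foraging), which encodes a cGMP-dependent protein kinase, at 337. The strongest in 3' UTRs after CG16989 and CG9166 were exu (exuperantia), needed to localise bicoid mRNA, at 283, and lwr, the SUMO-conjugating enzyme, at 179. In 5' UTRs they were dos (daughter of sevenless), an adaptor of receptor tyrosine kinases, at 337, drm, a zinc finger gene of the odd-skipped family, at 173, S (Star), which moves EGF receptor ligands out of the endoplasmic reticulum, at 104, and baz (bazooka), the Par-3 polarity protein, at 78.4. Coding exons were led by CG42390 at 126, rt, a protein O-mannosyltransferase, at 124, CG2694 at 105.5 and eIF4E1, the cap-binding translation factor, at 74.1. Sites in exons were thus few, and only those in 3' UTRs reached the highest values.

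Intronic sites lay in long, early introns. Of the 78, 55 (70.5%, 59.6 to 79.5%) were in the first intron of a transcript, which holds 42.8% of the intron bases beyond 500 bp. The median length of an intron with a distal region was 4294 bp, against 102 bp for all introns, and the longest was 105464 bp. Long introns hold more of the bases that the distance rule leaves in. Transposable elements, which hold 6.73% of the genome beyond 500 bp, held 1 of 159 distal summits, in an INE-1 copy near ArgRS.

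Many distal sites were still near a gene's start. The median distance to any start site was 1307 bp (interquartile range 770.5 to 3311, longest 41364). In all, 63 regions lay within 1 kb, 37 from 1 to 2 kb, 34 from 2 to 5 kb, 14 from 5 to 10 kb and 11 farther away. Relative to the nearest coding start site, 93 were downstream and 66 upstream. The nearest promoter region was a median of 11726 bp away, and 36 distal regions had one within 2 kb. Just inside the limit stood CheB93a at 503 bp with a signal of 172, CG12728 and lncRNA:CR46249 at 506 bp with 156 and 119, CG43066 at 512 bp with 114 and CG45092 at 513 bp with 31.1. Just outside it stood Larp4B at 500 bp with 274, tkv at 497 bp with 8.30, RanBPM at 496 bp with 85.3, Vdup1 at 495 bp with 89.2 and Rcd2 at 493 bp with 362. The 5 sites inside the limit ranged from 31.1 to 172 and the 5 outside it from 8.30 to 362, with 2 of the latter above all 5 distal ones.

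The 5 sites farthest from any coding start site were 3 intronic and 2 intergenic ones. The farthest lay 41364 bp away in an intron of CG43759, with a signal of 244, found in all 3 replicates. Next was an intron of Ubx, the Hox gene of the third thoracic and first abdominal segments, 31484 bp from a coding start site and 17185 bp from any, with 94.4. An intronic site of sbb (scribbler), a transcriptional co-repressor, lay 21950 bp away with 57.0. The intergenic site nearest ems (empty spiracles), a head and spiracle homeobox gene, lay 20180 bp away with 198, and that nearest CG43402 19563 bp away with 295. Both of these were found in all 3 replicates. Of these 5 far sites, 3 were found in all 3 replicates and 2 had signals under 100.

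Per chromosome the density was 1.37 distal regions per Mb over 115.7 Mb beyond 500 bp. It was 2.49 on chromosome 4, from 3 regions at Asator, ey and Sox102F, 1.75 on X, 1.55 on 2L, 1.26 on 3L, 1.25 on 2R and 1.11 on 3R. The value for chromosome 4 rests on 3 sites.

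The genes around distal sites were longer than most. Assigning each region to its host gene, or to the nearest coding start site where it had none, gave 158 of 13945 coding genes (1.13%). Their median span was 9.92 kb, against 2.17 kb for all coding genes. Of the 158, 61 (38.6%, 31.4 to 46.4%) also had a peak within 500 bp of a start site, as had 2980 of all 13945 coding genes (21.4%). A peak at any start site of a gene counted, and 1 peak could count for more than 1 gene. The 2 shares were not matched for gene span and not tested. The distal peak was the stronger in 25 of these 61 genes, among them CG5273 with 684 against 61.7 at the promoter, Asator with 554 against 104, and for with 337 against 140.0. At CG9166 the values were closer, with 679.6 in the 3' UTR and 702 at the promoter. CG31668, ctrip, drm, mam, psq and sbb each had 2 distal regions.

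Developmental regulators made up part of this set. Over 25 gene lists for tissues and pathways, 32 of 473 list genes had a distal region (6.77%), against 126 of 13472 genes in no list (0.935%). The lists hold longer genes, with a median span of 9.25 kb, and a long gene offers more bases beyond 500 bp. Among genes over 20 kb, the shares were 20 of 151 list genes (13.2%) and 34 of 862 others (3.94%). From 5 to 20 kb they were 5.23% and 1.94%, from 2 to 5 kb 3.28% and 0.63%, and under 2 kb 0 of 47 and 0.36%. These shares are descriptions without a test, since the lists were chosen with earlier results known.

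Among genes of the tissues where Dorsocross acts, in the heart and dorsal mesoderm list 4 of 33 genes had a distal region (12.1%), beside 6.77% of all list genes and 1.13% of all coding genes. They were org-1 at 392.5, Mef2, the muscle transcription factor, at 142, Ubx at 94.4 and zfh1, a zinc finger homeodomain repressor, at 55.9. In the amnioserosa list 1 of 26 had one (3.85%), msn (misshapen), a kinase upstream of JNK in dorsal closure, at 326. The JNK list had 2 of 28 (7.14%), msn and baz. No gene had one among the 23 of the Dpp list, the 25 of the Wingless list and the 13 of the Hedgehog list, nor among 13 Hippo, 14 blood and 31 cell cycle genes.

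Segmentation, appendage, hormone and nervous system lists also held distal sites, and no difference between lists was tested. In the gap and pair-rule list 4 of 31 genes had a distal region (12.9%), ems at 198, drm at 191, btd (buttonhead), a head gap gene, at 174 and hry (hairy), a pair-rule repressor, at 79.5. The appendage list had 2 of 29 (6.90%), ey at 471 and bab1, a BTB factor of leg and pigmentation, at 146. The ecdysone list had 3 of 25, the receptor gene EcR at 135, its early target Eip74EF at 135 and Kr-h1, a juvenile hormone response gene, at 82.2. The gut list had 2 of 18, drm and GATAe, an endodermal GATA factor, at 118. The neural list had 2 of 40, Sox102F, a SoxD factor, at 114 and grh (grainy head), an epidermal and neural transcription factor, at 102. The glial list had 1 of 10, nrv2, a subunit of the sodium pump, at 100.8. The odd-skipped list had 1 of 4, drm, and the Hox list 1 of 8, Ubx.

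In the signalling, adhesion and chromatin lists the shares ran from 0% (Dpp, Wingless, Hedgehog and Hippo) to 11.4%. They stand beside 6.77% of all list genes and 1.13% of all coding genes. The Notch list had 2 of 22 (9.09%), mam (mastermind), the co-activator of the pathway, at 184, and the Notch ligand Delta at 151. The EGFR and FGF list had 2 of 28, the protease ru (roughoid) at 252 and the ligand spi (spitz) at 122. The JAK/STAT list had 1 of 10, the phosphatase Ptp61F, through the same region as ru. The adhesion list, whose genes have a median span of 52.6 kb, had 4 of 35 (11.4%), Dys (dystrophin) at 175, kirre, a myoblast fusion receptor, at 151, Sema1a, an axon guidance semaphorin, at 139 and Nrg (neuroglian) at 109. The muscle list had 3 of 24, led by kirre, and the tracheal list 1 of 13. The chromatin and insulator list had 3 of 41 (7.32%), Trl, which encodes GAGA factor, at 126, the remodeler Mi-2 at 88.0 and mod(mdg4) at 84.3. The piRNA list had 1 of 14, del (deadlock), at 192. Except for org-1, ey and msn, the regions of list genes had signals of 252 or less.

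The T-box core was rare at distal summits. GGTGTGA, searched on both strands, stood within 50 bp of 1 of 159 distal summits (0.629%, 0.111 to 3.48%), that of Ccdc85 with a signal of 136. It stood in 3 of the same regions' flanks, 500 bp farther from the start site, and in 26 of 2111 promoter regions (1.23%), where 1.19% of all regions had it. Neither the comparison with the flank (exact two-sided sign test, Benjamini-Hochberg adjusted over 27 motifs, p = 1) nor that with promoters (Fisher's exact test, adjusted p = 1) passed. With GGTGTGA only at the summit in 1 region and only in the flank in 3, the sign test could not have passed. The interval allows a share of up to 3.48%. The shorter core GGTGTG, which lies inside GGTGTGA, stood at 6 distal summits and in 5 flanks. Within 250 bp, GGTGTGA stood in 12 distal regions (7.55%) and 5.16% of promoter regions.

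The DRE was present at distal summits, at a lower share than at promoters. TATCGATA, which reads the same on both strands, stood within 50 bp of 20 of 159 distal summits (12.6%, 8.29 to 18.6%) and in 1 of their flanks (exact sign test, adjusted p = 0.000566). Promoter regions had it in 479 of 2111 (22.7%), and 22.0% of all regions had it. The difference from promoters was -10.1 points (Fisher's exact test, adjusted p = 0.0245). Neither comparison passed within 25 bp of the summit, at 1000 bp from a start site, among peaks at or above the median signal or without any 1 replicate, settings that mostly leave fewer regions. Within 250 bp it stood in 28 distal regions (17.6%), the median distance to the summit being 26 bp, and in 39.5% of promoter regions. The 20 carriers had a median signal of 178, and 10 of them were found in all 3 replicates. Promoter regions with the DRE had a median of 254, and 65.6% of them were found in all 3.

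The strongest carriers were ey at 471, for at 337, the shared intron of Atg1 and CG42709 at 309.8, CG10651 at 284 and exu at 283. Atg1 encodes the kinase that starts autophagy. Carriers were spread over classes, with 10 of 59 intergenic, 8 of 78 intronic and 2 of 9 3' UTR regions. They were spread over distance too, with 9 of 63 regions within 1 kb of a start site, 9 of 71 from 1 to 5 kb and 2 of 25 beyond 5 kb.

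GAGA repeats showed the opposite order. GAGAGAG, on either strand, stood within 50 bp of 15 of 159 distal summits (9.43%, 5.80 to 14.98%), in 1 flank (exact sign test, adjusted p = 0.0070) and in 36 promoter regions (1.71%; Fisher's exact test, adjusted p = 2.36e-05). The 15 regions were weak. Their median signal was 112 (75.7 to 151), none was found in all 3 replicates, none reached the list's median, and 12 were intronic. The 36 promoter regions with GAGAGAG were weak among promoter regions too. They had a median signal of 137, against 216 for all promoter regions. All 3 replicates held 9 of the 36, against 55.8% of all promoter regions. Among peaks at or above the median signal, where no distal carrier was left, the difference from promoters was -0.983 points. It also changed sign without replicate 1 (-0.903) and without replicate 2 (-0.819). The call against promoters was also lost at 1000 bp from a start site (Fisher's exact test, adjusted p = 0.0909). That against the flank was lost there (exact sign test, adjusted p = 0.633), within 25 bp of the summit (p = 0.352), with the flank toward the start site (p = 0.373), among peaks at or above the median signal and without any 1 replicate. The higher share was thus that of weak sites.

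**Figure D4:**
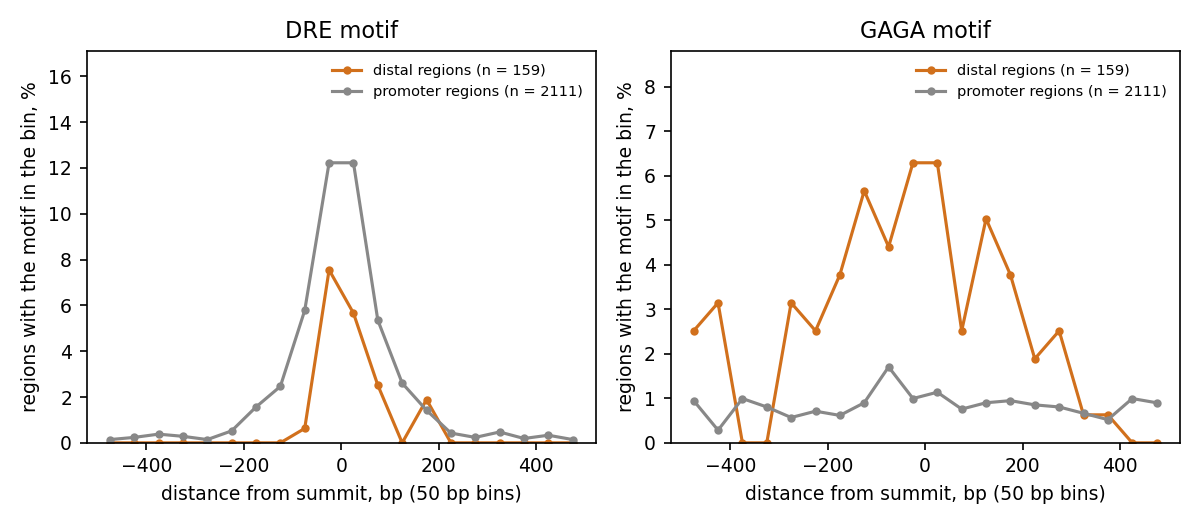
Share of regions holding the DRE (left) and GAGAGAG (right) in bins of 50 bp around the summit, for 159 distal and 2111 promoter regions (horizontal axis, distance from the summit in bp; vertical axis, percent of regions). At the 2 bins beside the summit the DRE stands in 7.55% and 5.66% of distal regions and 12.2% of promoter regions, and GAGAGAG in 6.29% of distal regions in both bins and 0.995% and 1.14% of promoter regions. The distal GAGAGAG profile is broader, with 5.66% and 5.03% in the bins centred at -125 and 125 bp, where no distal region has the DRE.

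The DRE and GAGA repeat were 2 of 27 motifs that passed against the flank (7.41%), and both were more frequent at the summit. Without any 1 replicate no motif passed. Against promoters 3 of 27 passed (11.1%), these 2 and the AP-1 sequence TGANTCA, at 11 distal summits (6.92%) and 2.04% of promoter regions (Fisher's exact test, adjusted p = 0.0130). The TGANTCA difference from promoters kept its direction but lost its call at 250 bp (Fisher's exact test, adjusted p = 0.145) and 1000 bp (p = 0.0909) from a start site, with coding start sites only (p = 0.0603), within 25 bp (p = 0.412), in the longest list (p = 0.204) and without any 1 replicate (p = 0.0712 to 1). Among peaks at or above the median signal, with 59 distal regions, it passed at 11.4 points (Fisher's exact test, adjusted p = 0.00271). TGANTCA was the only motif to pass against promoters there. Its call against promoters also held over all peaks, with the peak midpoint in place of the summit and within 100 bp. TGANTCA did not pass against the flank, at 11 summits and in 4 flanks (adjusted p = 0.533, exact sign test). Of its 11 summit copies, 4 lay inside the longer element described next. These 4, at the genes not, CG43759, hppy and ems, had signals of 198 to 257, above the list's median of 170. They are thus among the carriers at or above the median signal, and whether TGANTCA passed there without them was not tested. The core promoter motif GGTCACACT stood at 0 of 159 distal summits and 2.98% of promoter regions (Fisher's exact test, adjusted p = 0.110), and the Wilson interval for 0 reaches 2.36%. The Zelda site CAGGTAG stood at 1 distal summit. Of all 6-base sequences, each taken with its reverse complement, 5 (0.24%) were more frequent at summits than in flanks and none less, with 99 at an unadjusted p under 0.05. Of the 5, CGATAG (at 33 summits and in 3 flanks; adjusted p = 3.20e-05 by the exact sign test), ATCGAT (38 and 4) and TATCGA (44 and 8) lie in or overlap the DRE, ATATCG overlaps its start, and AGAGCG (24 and 4) does not. Against promoters 32 (1.54%) differed, 22 higher and 10 lower. Among the higher were AGAGCG, at 24 distal summits and 3.93% of promoter regions, CGTGTC, at 18 and 2.46%, and CGTGAC, at 21 and 3.84%. Among the lower were TATCGA, at 44 distal summits and 49.1% of promoter regions, and ATCGAT. Median GC content was 42.6% at distal summits, 39.6% in flanks and 38.6% at promoter summits, and its part in these differences was not tested.

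The 9-base element of the printed sequences joins 2 of those 6-base sequences. Its counts are given with no test because it was noticed at the strongest distal summits of these data. CGTGTCACG or CGTGACACG stood within 50 bp of 12 of 159 distal summits (7.55%, 4.37 to 12.7%), in 0 flanks and in 16 of 2111 promoter regions (0.758%, 0.467 to 1.23%). Within 250 bp it stood in 19 distal regions (11.9%) and 31 promoter regions (1.47%). It was in 5 of the 10 strongest distal regions, CG16989, CG5273, CG9166, CG15468 and inc. The genome holds 384 copies, 50 of them in a peak, and 318 copies lie more than 500 bp from a start site, 19 of them in a peak. Most copies were thus outside peaks. A longer form, CGTGANTCACG, stood at 4 distal summits, in 0 flanks and in 1 promoter region. The genome holds 56 copies, 10 in a peak.

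The 16 regions with either form within 50 bp had a median signal of 274 (139.9 to 757), against 126 for the 108 regions with neither form, no DRE and no GAGA repeat. All 3 replicates held 12 of the 16 and 24 of the 108 (22.2%), and each of the 16 was found in at least 1. Because the element was noticed at the strongest summits, the signal and replicate support of its carriers are not independent of that choice. The 16 regions were 7 intronic, 7 intergenic and 2 in 3' UTRs, at a median of 2535.5 bp from a start site. None also had the DRE or a GAGA repeat within 50 bp. Beyond the sites printed above they include the intronic sites of sn (singed), the fly fascin, at 210.4, and hppy, a MAP4K kinase, at 204, the intergenic sites near psq (pipsqueak), a BTB factor that binds GAGA repeats, at 194 and ems at 198, and the CG43759 site at 244. Another 9 regions had a form within 250 bp but not wholly within 50 bp. They were Sfp79B at 516, dos at 337, Ptp61F/ru at 252, klar at 220.1, Dys at 175, btd at 174, sbb at 145, ctrip at 121 and flw at 107. Of these 9, 5 were found in all 3 replicates, and flw was found in none. Promoter regions with either form numbered 17, with a median of 332, and 14 were found in all 3 replicates (82.4%). CATCTCTA, seen beside the element in CG9166, CG15468 and inc, stood at 7 distal summits (4.40%) and 71 promoter summits (3.36%). It was within 250 bp in 9 of the 25 regions with an element that near, and in 19 distal regions in all (11.9%).

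**Figure D5:**
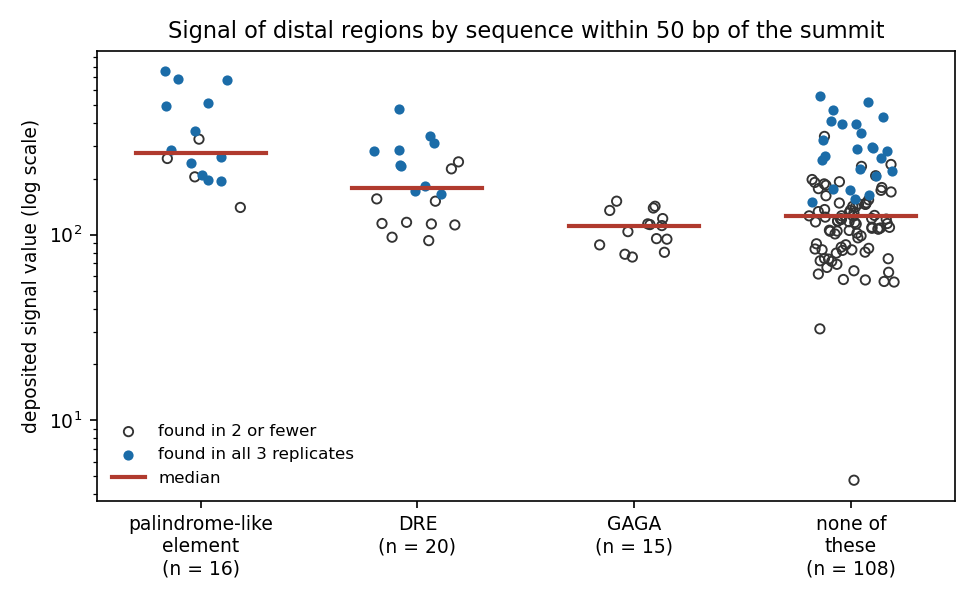
Signal (log scale) of each distal region by the sequence within 50 bp of its summit, with a line at the median of each group, filled points found in all 3 replicates and open points in 2 or fewer. Regions with the element in either form have a median of 274, regions with the DRE 178, regions with GAGAGAG 112, and the 108 regions with none of them 126. The element was noticed at the strongest distal summits, so the median of its group is not independent of signal.

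The strongest pair shared more than the element. The 301 bases around the CG16989 and CG5273 summits aligned over 295 bases at 89.5% identity, 37569 bp apart on X, and whether reads were shared between them was not tested. The CG16989 window had 3 further matches in the genome, of which the CG5273 site was the only 1 in a peak. The others were partial, at lncRNA:CR44779 (127 bases, 82.7%) and in Appl (97 bases). The Asator window had 9 partial matches elsewhere, of 59 to 91 bases at 77.8 to 86.4% identity, none in a peak. The windows of CG9166, Sfp79B and CG15468 had no match elsewhere. In all, 6 of 159 distal regions aligned with another region of the list.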

How the data were processed

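The samples were 3 biological replicates of 1 group. Deposited files were narrowPeak lists on dm6, per the file headers: a ranked and a thresholded list for each replicate and lists for the series, thresholded by the irreproducible discovery rate. The aligner, the peak caller and which replicates each series list compares are not stated in the labels or file headers. The authors' column 7 was used as signal, its scale not stated and comparable only within a list. The authors' deposited score (column 5, a scaled irreproducibility value) was read and entered no result. Read depth is unknown, so intervals (95%, Wilson) cover counting error only. Peak summits were set against Ensembl release 115 start sites. Sequence came from the RefSeq release 6 genome. Overlapping peaks were merged and the strongest kept.

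Shares were compared by Fisher's exact test (two-sided) and summit windows (50 bp on each side) with their own flanks by an exact two-sided sign test, each with Benjamini-Hochberg adjustment over its family (2 shares, 27 motifs or all 6-base sequences) and a threshold of 0.05. Regions are not replicates, and nothing says whether the 3 replicates came from separate embryo collections beyond being called biological. The scripts used Python 3.11.15, pandas 2.3.3, scipy 1.17.1 and BLAST 2.17.0 (blastn). On simulated windows of random bases the sign test called TATCGATA planted in 12% of summits in 100% of 60 runs, and in 5% in 3.33%. No other motif was planted, so these rates do not extend to motifs common in flanks. Members, motifs and gene lists were chosen with earlier results of these data known. Sites were named by a rule: the 15 highest signals, up to 4 per class and per gene list, the 5 farthest from a coding start site, and up to 5 carriers of each of 2 motifs. Sites outside it (the element sites, genes with 2 regions, edges of the distance rule) were chosen after their values were seen. The comparison of 6-base sequences with promoters, the element and further checks of the GAGA repeat and TGANTCA were added after seeing the data. Alternatives were other distances to the start site, coding start sites only, all peaks, a stricter list (peaks at or above the median signal), other windows, another flank, the longest of the series lists and leaving out each replicate (peaks found in both others).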

Additional observations from a re-analysis of the deposited data

How the results depend on the processing

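The lower share of distal regions found in all 3 replicates kept its direction and passed under every alternative, from -13.2 points in the stricter list (peaks at or above the median signal; Fisher's exact test, adjusted p = 0.0111) to -37.7 in the longest list, and -28.2 to -25.1 without 1 replicate. The other results moved in some settings and held in others, and mainly the settings that moved them are given here. The causes of these changes were not tested, and many of the settings also leave fewer or more regions. The 202 distal peaks became 339 at 250 bp, 121 at 1000 bp, 59 in the stricter list, 567 in the longest list and 55 to 73 without 1 replicate. The difference at the median signal passed in 8 alternatives and failed in 1, without replicate 2 (Fisher's exact test, adjusted p = 0.290). Without 1 replicate it was -16.8 to -7.82, taken at the median of the peaks left.

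For the DRE against promoters the difference was -11.0 at 1000 bp, -7.45 in the stricter list, -5.35 within 25 bp and -7.70 to -4.85 without 1 replicate, none of which passed. In the other 6 alternatives it passed, with -15.2 in the longest list (Fisher's exact test, adjusted p = 2.10e-19). Against the flank the difference was 10.4 at 1000 bp, 16.9 in the stricter list, 6.29 within 25 bp and 16.7 to 19.1 without 1 replicate, none past the threshold. It passed in the other 8 alternatives. GGTGTGA against promoters turned to 1.34 with coding start sites only, 1.94 within 100 bp and 0.538 without replicate 1 (-1.24 to 0.538 over the replicates). Against the flank it turned to 0.962, 2.52 and, in the longest list, 0.192, and to 1.67 without replicate 1 (0 to 1.67). GAGAGAG against promoters turned to -0.983 in the stricter list, -0.903 without replicate 1 and -0.819 without replicate 2 (-0.903 to 0.762).

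The 2 motifs against the flank became 1 at 1000 bp, 0 in the stricter list, 0 within 25 bp, 1 with the flank toward the start site and 0 without any 1 replicate. The 3 against promoters became 0 at 1000 bp, 5 with coding start sites only, 1 in the stricter list, 1 within 25 bp, 5 within 100 bp, 5 in the longest list and 0 without any 1 replicate. The 5 6-base sequences against the flank became 10 at 250 bp, 0 at 1000 bp, 3 over all peaks, 0 in the stricter list, 1 within 25 bp, 15 within 100 bp, 24 in the longest list and 0 to 2 without 1 replicate. The 32 against promoters became 9, 9, 6, 91 and 324 at 1000 bp, the stricter list, 25 bp, 100 bp and in the longest list, and 7 to 10 without 1 replicate. The element's share was 18.6% in the stricter list, 18.0 to 21.3% without 1 replicate and 2.69% in the longest list. Depth is unknown, so the files cannot show which weak sites more reads would add.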

Other observations

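Of the 159 distal regions, 140 (88.1%) overlapped a peak of the longest list, against 2019 of 2111 promoter regions (95.6%). Another distal region lay within 2 kb of 8 distal regions, and 5 lay within 2 kb of a small RNA gene.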
